A study of Mus musculus with 20 samples.

Results

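The genes of the pyruvate dehydrogenase complex and of the enzymes that switch it off and on were examined in mouse embryonic stem cells without and with thymine DNA glycosylase (TDG). The 10 genes were taken by symbol from the authors' deposited comparison. They are the subunit genes Pdha1, Pdhb, Dlat, Dld and Pdhx, the kinase genes Pdk1, Pdk2 and Pdk3, and the phosphatase genes Pdp1 and Pdp2. All 10 were among the 46939 genes of the table and all 10 were among the 12035 genes with a mean of at least 1 FPKM (fragments scaled by transcript length and library size) that entered the tests. The genes were selected on their TDG KO and WT FPKM in these same libraries, so those values are given as a description and not as a test.

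TDG is the DNA repair enzyme that removes formylated and carboxylated cytosine from CG sites, and the series asks how carboxylated cytosine bears on binding of the chromatin protein CTCF. The libraries were TDG KO cells and WT cells of a 129 background. Both lines were received as a gift, and both were cultured with serum and LIF on mitotically arrested embryonic fibroblasts that were depleted by serial plating before use. RNA was sequenced in 2 TDG KO libraries and 2 WT libraries, and CTCF peaks were deposited for another 2 TDG KO and 2 WT libraries. Separate cultures for the replicates are not stated in the labels, so a p-value speaks only of the spread among these libraries, which could be technical. A difference between genotypes cannot be told apart from a difference between these lines.

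The pyruvate dehydrogenase complex sits in the mitochondrial matrix and turns pyruvate, the end product of glycolysis, into acetyl-CoA. Its E1 enzyme, built from the alpha subunit (Pdha1) and the beta subunit (Pdhb), decarboxylates pyruvate with thiamine pyrophosphate. The lipoate-bearing E2 core (Dlat) forms acetyl-CoA, E3 (Dld) reoxidises the lipoate, and the E3-binding protein (Pdhx) tethers E3 to the core. Pyruvate dehydrogenase kinases phosphorylate serines of the alpha subunit and stop the enzyme, and the phosphatases remove those phosphates. Pluripotent cells are known for rapid glycolysis, in which much of the pyruvate leaves the cell as lactate. Pdha1 lies on the X chromosome, and mammals carry an intronless autosomal copy, Pdha2, that is known from the testis.

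The bases just before the start of 4 genes are shown because these genes carry the results: Pdha1 and Pdhb encode the paired subunits of E1, Pdp2 is the phosphatase gene that differed, and Pdha2 is the testis copy. Each run is the 250 bases upstream of the annotated start in RefSeq (GRCm38.p6), read 5′ to 3′ on the strand of the gene. Capitals mark CG, the dinucleotide whose cytosine can be methylated and then oxidised.
Pdha1 (chrX:160138431-160138680, minus strand): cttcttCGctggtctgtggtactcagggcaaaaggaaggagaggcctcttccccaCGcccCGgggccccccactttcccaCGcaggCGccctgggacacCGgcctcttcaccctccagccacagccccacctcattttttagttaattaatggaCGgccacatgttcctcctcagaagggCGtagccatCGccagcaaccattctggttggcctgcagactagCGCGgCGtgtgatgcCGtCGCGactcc
Pdhb (chr14:8172993-8173242, minus strand): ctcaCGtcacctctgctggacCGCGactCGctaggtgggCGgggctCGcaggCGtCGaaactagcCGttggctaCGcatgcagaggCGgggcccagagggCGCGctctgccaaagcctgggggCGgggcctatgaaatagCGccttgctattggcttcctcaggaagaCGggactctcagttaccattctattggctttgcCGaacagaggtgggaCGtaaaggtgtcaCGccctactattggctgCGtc
Pdp2 (chr8:104591222-104591471, plus strand): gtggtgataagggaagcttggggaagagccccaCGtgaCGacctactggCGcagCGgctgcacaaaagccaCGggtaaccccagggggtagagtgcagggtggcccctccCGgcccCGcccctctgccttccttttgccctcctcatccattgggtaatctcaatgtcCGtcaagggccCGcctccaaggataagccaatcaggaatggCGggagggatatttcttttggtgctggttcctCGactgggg
Pdha2 (chr3:141212356-141212605, minus strand): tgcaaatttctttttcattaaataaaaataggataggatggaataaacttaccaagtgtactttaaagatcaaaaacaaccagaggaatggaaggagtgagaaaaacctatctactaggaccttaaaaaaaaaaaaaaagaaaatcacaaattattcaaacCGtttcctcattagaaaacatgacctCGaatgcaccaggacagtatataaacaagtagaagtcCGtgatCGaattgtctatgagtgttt

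The printed bases held 15 CG dinucleotides upstream of Pdha1, 20 upstream of Pdhb, 11 upstream of Pdp2 and 4 upstream of Pdha2. A search for the letters CG, which read the same on both strands, was run in the 300 bases from 250 before to 50 after the start of all 32851 RefSeq promoters, whose median was 7. In that longer window Pdha1 held 21, more than 75.2% of all promoters. Pdhb held 24, Pdp2 held 14 and Pdha2 held 4, more than 80.0%, 63.7% and 31.4% of all promoters. The table had an entry for 9 of the 10 genes, all but Pdp1, and the main entry of each of these 9 held more CG than the median promoter. A second, alternative entry of Pdk1 held 2. No CTCF peak of any of the 4 lists lay in the promoter window of these 9 genes or of Pdha2.

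The targeted gene Tdg had 5.50 and 4.74 FPKM in the TDG KO libraries, against 28.1 and 30.4 FPKM in the WT libraries. Without counts in the table, absolute depth could not be read. From the spacing of low values, TDG KO replicates 1 and 2 had 0.991 and 0.928 and WT replicate 2 had 0.858 of the depth of WT replicate 1. All 14 markers of embryonic stem cells were present at 29.5 to 5100 FPKM, 2 of them called higher and 9 called lower in TDG KO. Among all genes tested 24.4% were called higher and 29.5% lower. Of 10 endoderm and mesoderm markers 7 were below the filter, and the other 3 were called higher: T at 575% of WT, Sparc at 139% and Lama1 at 129%. The 7 were mixed. Gata4, Gata6 and Kdr had both TDG KO libraries below both WT libraries, Foxa2 and Afp had them above, and Sox17 and Mesp1 overlapped. Of 14 fibroblast markers 13 were tested, with none called higher and 10 called lower. None of the 14 was at 0, and their FPKM summed to 139 and 159 in the TDG KO libraries and to 312 and 198 in the WT libraries. The part of these marker differences in the results below was not tested. In bulk RNA fewer cells of a type and less RNA per cell cannot be told apart.

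Of the 5 subunit genes only Pdha1 was called, apart from Pdhb under 2 other scalings, and Pdha1 RNA in TDG KO cells was at 17.8% of its WT level. Pdha1 (ENSMUSG00000031299, chromosome X, 160122219 to 160138430, mm10) had 109.2 and 108.5 FPKM in the TDG KO libraries, against 597.7 and 627.3 FPKM in the WT libraries. Both TDG KO libraries were far below both WT libraries, which is a description, because the genes were chosen on these values. The means were 109 ± 0.458 FPKM in TDG KO and 613 ± 20.9 FPKM in WT (SD, n = 2 each). On the log2(FPKM + 1) scale the difference was -2.48 (SE 0.063), and it lay between -2.52 and -2.43 under every other setting tried. Cufflinks grouped Pdha1 with 3 other genes in 1 locus that takes in Map3k15, which overlaps the 3′ end of Pdha1, and the sources used here do not say whether counting used strand. Map3k15 itself had 3.95 and 3.77 FPKM in the TDG KO libraries, against 6.49 and 6.89 FPKM in the WT libraries, far below Pdha1.

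The other subunit genes had TDG KO means between 93.6 and 111% of their WT means. Pdhb, the beta subunit of E1, had 122.9 and 130.6 FPKM in the TDG KO libraries, against 111.7 and 116.2 FPKM in the WT libraries. The libraries of the 2 genotypes did not overlap, but the log2 difference of 0.15 (SE 0.063) was not called. It was 0.19 with upper-quartile scaling and 0.20 with median-ratio scaling, and was called under both. This too is a description, because Pdhb was chosen on these values. Dlat, the E2 core, had 45.3 and 53.3 FPKM in TDG KO and 50.4 and 52.3 FPKM in WT, so that the genotypes overlapped. Dld, the E3 enzyme that this complex shares with other complexes, had 58.3 and 61.6 FPKM in TDG KO and 61.9 and 66.2 FPKM in WT, with a log2 difference of -0.09 (SE 0.065). Pdhx, the tether of E3, had 30.0 and 29.4 FPKM in TDG KO and 27.7 and 28.2 FPKM in WT, with a log2 difference of 0.08 (SE 0.059). None of Dlat, Dld and Pdhx was called, and their TDG KO means were 96.0%, 93.6% and 106% of WT.

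Counted over all 10 genes, 1 was called higher, 3 were called lower and 6 were not called, where a call is a limma adjusted p under 0.05 over all 12035 genes. Over all genes tested 54.0% were called, 24.4% higher and 29.5% lower. The libraries of the genotypes did not overlap in 7 of the 10 genes, against 78.8% of all genes tested. The median log2 difference was -0.04 over the 10 genes and -0.04 over all genes. Nothing is read from these counts, because the genes were chosen with these values known. The authors' deposited table marked 2 of the 10 as significant, Pdha1 and Pdp2, against 27.4% of the 16262 genes with a test in it.

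**Figure D1:**
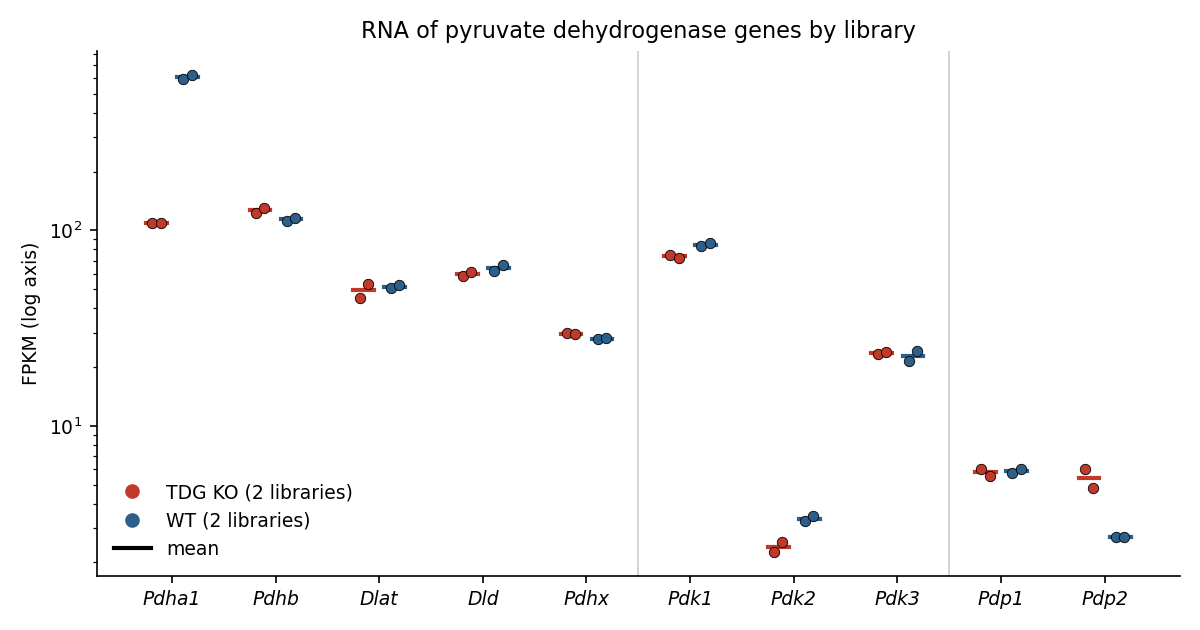
RNA of the 10 genes in each library, in FPKM on a log axis, with TDG KO libraries in red left of WT libraries in blue, each point 1 library and each bar the mean of 2. Pdha1 has the widest gap, with 109 FPKM on average in TDG KO and 613 FPKM in WT, and Pdp2 is the phosphatase gene with higher TDG KO points.

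The balance of E1 subunit RNA inside a library differed between the genotypes. FPKM is per length of transcript, so levels of different genes can be set side by side. The ratio of Pdha1 to Pdhb was 0.888 and 0.831 in the TDG KO libraries, against 5.35 and 5.40 in the WT libraries. In TDG KO cells the alpha subunit was thus just under its partner, whereas in WT cells it exceeded it severalfold. The mean ratio was 0.859 ± 0.0402 in TDG KO and 5.37 ± 0.0334 in WT (SD, n = 2 each). The ratio of Pdha1 to Dlat was 2.41 and 2.04 in TDG KO, against 11.8 and 12.0 in WT. The ratio of Pdhb to Dlat, which leaves Pdha1 out, was 2.72 and 2.45 in TDG KO, against 2.22 and 2.22 in WT.

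The order of the 10 genes by mean FPKM moved at the top and at the bottom. In TDG KO cells it ran Pdhb, Pdha1, Pdk1, Dld, Dlat, Pdhx, Pdk3, Pdp1, Pdp2 and Pdk2. In WT cells it ran Pdha1, Pdhb, Pdk1, Dld, Dlat, Pdhx, Pdk3, Pdp1, Pdk2 and Pdp2. Among neighbours in these orders only Pdp1 and Pdp2 in TDG KO cells had libraries that overlapped. The middle of the order, from Pdk1 to Pdp1, was the same in both genotypes.

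The intronless copy Pdha2 was read at a low level in both genotypes. It had 1.12 and 1.18 FPKM in the TDG KO libraries, against 0.183 and 0.213 FPKM in the WT libraries, with means of 1.15 ± 0.0437 and 0.198 ± 0.0214 FPKM (SD, n = 2 each). The authors' deposited table marks this as significant. Its mean was under the filter of the main test. With no filter it was called higher, at a log2 difference of 0.84 (SE 0.057, limma adjusted p = 0.00471). How far reads of Pdha1 and Pdha2 can be shared was not tested.

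Among the kinases Pdk1 was the main RNA in both genotypes and was slightly lower in TDG KO. Pdk1, a kinase known as a target of the hypoxia factor HIF1, had 74.6 and 72.6 FPKM in the TDG KO libraries, against 83.4 and 85.8 FPKM in the WT libraries. Its log2 difference was -0.20 (SE 0.058), and the call was lost with median-ratio scaling (-0.15), without the trend option, without TDG KO replicate 2 (-0.18), without WT replicate 1 (-0.22) and without WT replicate 2 (-0.18). Pdk1 gave 74.4 and 73.3% of the FPKM of the 3 kinase genes in TDG KO and 77.2 and 75.7% in WT.

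Pdk2, a kinase found in most tissues, was scarce, with 2.26 and 2.54 FPKM in TDG KO and 3.24 and 3.44 FPKM in WT. It was called lower at a log2 difference of -0.35 (SE 0.094), and lost the call with no filter, without TDG KO replicate 1 (-0.29) and without WT replicate 2 (-0.32). In the authors' deposited table it fell just short of their threshold, with a q-value of 0.0516. Pdk3, which like Pdha1 is on chromosome X (93764616 to 93832150), had 23.4 and 23.8 FPKM in TDG KO and 21.4 and 24.0 FPKM in WT. These libraries overlapped, and the log2 difference was 0.06 (SE 0.074). Pdk4, the kinase known to rise on fasting, had 3.55 and 3.68 FPKM in TDG KO and 3.45 and 3.61 FPKM in WT and was not called.

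Of the phosphatase genes, Pdp2 was called higher in TDG KO and Pdp1 was not called. Pdp2 (ENSMUSG00000048371, chromosome 8, 104591472 to 104599026) had 5.98 and 4.81 FPKM in the TDG KO libraries, against 2.70 and 2.69 FPKM in the WT libraries. Both TDG KO libraries lay above both WT libraries, and TDG KO averaged 200% of WT. The log2 difference was 0.79 (SE 0.108), between 0.65 and 0.97 under the other settings that kept the gene. Pdp1, the calcium-stimulated phosphatase, had 6.02 and 5.56 FPKM in TDG KO and 5.73 and 5.99 FPKM in WT. The ratio of Pdp2 to Pdp1 was therefore 0.993 and 0.865 in TDG KO, against 0.471 and 0.449 in WT. The regulatory subunit gene of the phosphatase, Pdpr, had 4.69 and 3.40 FPKM in TDG KO and 5.98 and 5.50 FPKM in WT. It was called lower at a log2 difference of -0.43 (SE 0.13). That call was lost without TDG KO replicate 2 (-0.24), without WT replicate 1 (-0.38), without WT replicate 2 (-0.48), with no filter and with upper-quartile scaling.

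Summed over genes, kinase RNA was 8.36 and 9.54 times phosphatase RNA in the TDG KO libraries, against 12.8 and 13.0 times in the WT libraries. The means were 8.95 ± 0.832 in TDG KO and 12.9 ± 0.146 in WT (SD, n = 2 each), and the libraries did not overlap. With 2 libraries against 2, an exact permutation test cannot give a two-sided p below 0.33, so no p-value is given for the ratios.

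**Figure D2:**
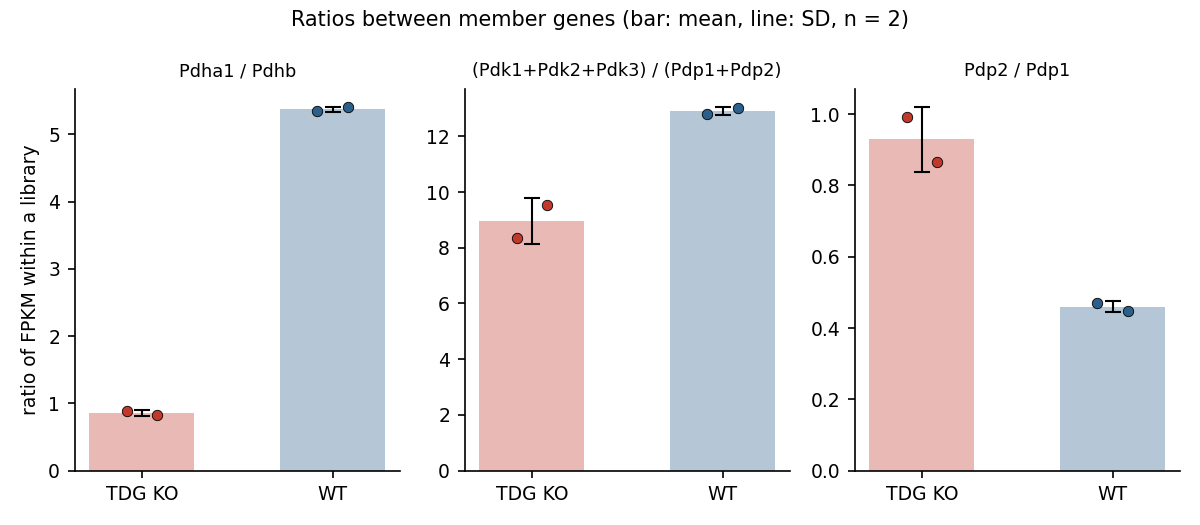
Ratios of FPKM between genes within each library, with TDG KO left of WT, each point 1 library, bars the mean and lines the SD (n = 2). The Pdha1 to Pdhb ratio averages 0.859 in TDG KO and 5.37 in WT, the kinase to phosphatase ratio 8.95 in TDG KO and 12.9 in WT, and the Pdp2 to Pdp1 ratio 0.929 in TDG KO and 0.46 in WT.

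Around the complex, 8 lists of linked genes were counted, 82 genes of which 74 were tested. Of these, 26 were called higher and 19 lower, or 60.8% called, near the 54.0% of all genes tested. The number higher was 17 without TDG KO replicate 2 and 16 without WT replicate 1, and the number lower was 12 without WT replicate 2. List medians lay between -0.20 and 0.29. Single tested genes of these lists ran from -0.97 (Foxo3) to 1.33 (Slc16a3), against -2.48 for Pdha1, which was chosen on its values. The counts of each list below stand beside 24.4% called higher and 29.5% called lower over all genes tested.

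Lipoic acid is the swinging arm of E2, and 6 of the 8 tested genes for its synthesis and attachment were called higher, with none lower and a median log2 difference of 0.29. Among all genes tested 24.4% were called higher. Mcat, which loads malonyl groups in mitochondrial fatty acid synthesis, had 20.7 and 22.4 FPKM in TDG KO and 15.8 and 16.1 FPKM in WT, a rise of 0.41 (SE 0.068) on the log2 scale. Lipt1, a lipoyltransferase, rose by 0.39 (SE 0.082) and Lipt2, the octanoyltransferase, by 0.40 (SE 0.102). Lipt2 lost its call without TDG KO replicate 2 (0.35), without WT replicate 1 (0.32) and with no filter. The count of genes higher was 3 without TDG KO replicate 2, without WT replicate 1 or without WT replicate 2.

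Thiamine pyrophosphate is the cofactor of E1, and the 4 tested genes of its supply were split, 2 higher and 2 lower. Slc19a2, a thiamine importer of the cell membrane, had 18.8 and 18.0 FPKM in TDG KO and 29.1 and 31.3 FPKM in WT, a log2 difference of -0.69 (SE 0.067). Thtpa, a thiamine triphosphatase, had a log2 difference of -0.45 (SE 0.081). The count of genes higher was 1 without TDG KO replicate 1, WT replicate 1 or WT replicate 2.

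The sister complexes that also use lipoate had 3 genes higher and 5 lower of 12, with a median log2 difference of -0.12. Gldc, the glycine decarboxylase of the glycine cleavage system, had 79.6 and 81.9 FPKM in TDG KO and 32.1 and 31.7 FPKM in WT, a rise of 1.31 (SE 0.058). Ogdh, the E1 enzyme of the oxoglutarate dehydrogenase complex, had 73.0 and 74.0 FPKM in TDG KO and 40.2 and 40.5 FPKM in WT, a rise of 0.85 (SE 0.057). Its paralog Ogdhl had 24.5 and 25.6 FPKM in TDG KO and 42.7 and 42.2 FPKM in WT, a log2 difference of -0.74 (SE 0.061). Ogdh and Ogdhl thus moved in opposite directions.

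For the supply of pyruvate and its other fates, 4 genes were higher and 3 lower of 13 tested. Slc16a3, a lactate exporter, had 59.1 and 58.7 FPKM in TDG KO and 22.1 and 23.7 FPKM in WT, a rise of 1.33 (SE 0.063). Mpc1, part of the carrier that lets pyruvate into mitochondria, had 37.8 and 39.4 FPKM in TDG KO and 23.3 and 23.3 FPKM in WT, a rise of 0.71 (SE 0.06). Pcx, pyruvate carboxylase, which sends pyruvate to oxaloacetate, had a log2 difference of -0.48 (SE 0.077). The count of genes lower was 1 without TDG KO replicate 1, WT replicate 1 or WT replicate 2.

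In the citrate cycle downstream, 3 of 15 genes were higher and 3 lower, and the median log2 difference was -0.02. Cs, citrate synthase, which takes up acetyl-CoA, rose by 0.31 (SE 0.058). The log2 differences of Idh3b, a subunit of isocitrate dehydrogenase, and Sdha, the flavoprotein of succinate dehydrogenase, were -0.37 (SE 0.06) and -0.32 (SE 0.057). The count of genes higher was 1 without TDG KO replicate 2 or WT replicate 1.

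Genes linked to the export, further supply and use of acetyl-CoA had 5 higher and 2 lower of 10, with a median log2 difference of 0.20. Acly, which makes cytosolic acetyl-CoA from citrate, had 197.7 and 193.0 FPKM in TDG KO and 127.4 and 127.8 FPKM in WT, a rise of 0.61 (SE 0.058). Acaca, acetyl-CoA carboxylase, rose by 0.64 (SE 0.077), and Acss2, which makes acetyl-CoA from acetate, rose by 0.41 (SE 0.085). The count of genes higher was 3 without either TDG KO replicate or without WT replicate 1, and the count lower was 1 without TDG KO replicate 2 or WT replicate 2. Among known regulators of the kinase genes, 3 of 10 tested were higher and 3 lower. Foxo3, a forkhead factor, had a log2 difference of -0.97 (SE 0.076), while the nuclear receptor gene Esrra rose by 0.81 (SE 0.092) and Myc by 0.62 (SE 0.064). The count of regulators higher was 2 without any 1 of the 4 libraries, and the count lower was 1 without TDG KO replicate 1, WT replicate 1 or WT replicate 2.

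**Figure D3:**
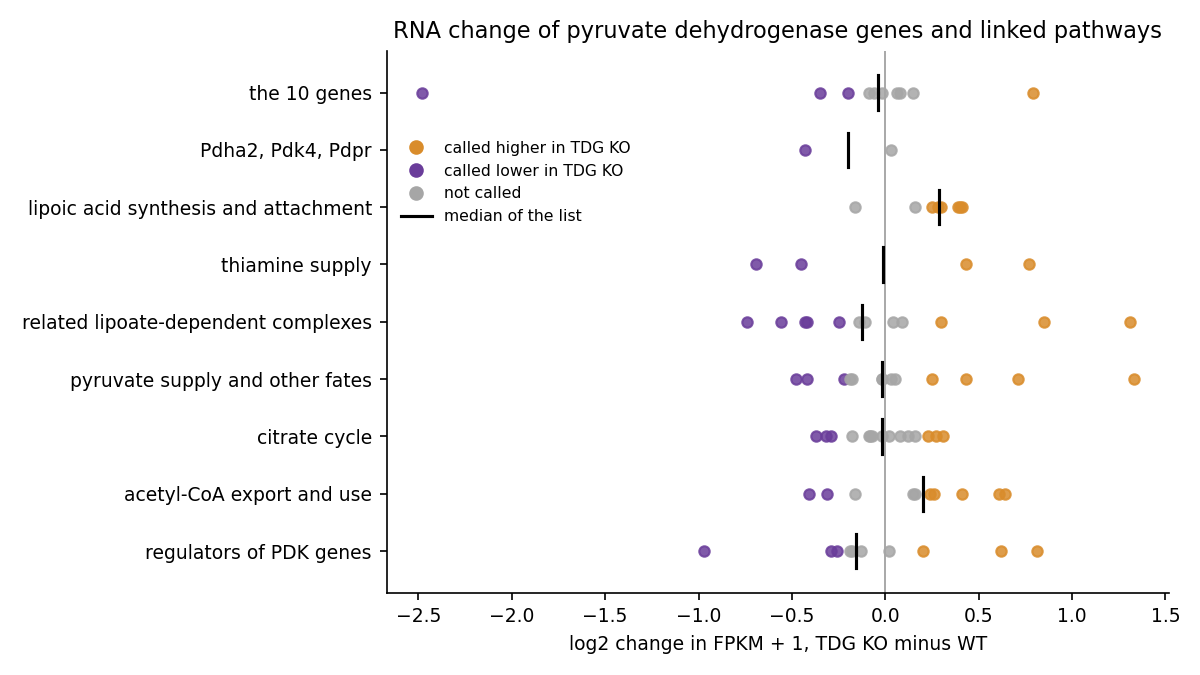
Log2 difference in FPKM + 1, TDG KO minus WT, for each tested gene of the 10 and of 8 linked lists, 1 dot per gene with the list median as a black line. Pdha1 is the far left dot at -2.48, Gldc at 1.31 and Slc16a3 at 1.33 are the far right ones, and list medians lie between -0.20 and 0.29.

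Pdha1 was then set beside its neighbours on chromosome X. Of the 29 tested genes within 5 Mb, 23 were called lower in TDG KO and 3 higher, and their median log2 difference was -1.36. This is 79.3% lower, against 36.4% of the other 412 tested genes of chromosome X, whose median was -0.06, and 29.5% of all genes tested. Libraries of the genotypes did not overlap in 27 of the 29 neighbours, against 78.8% of all genes tested. Only A830080D01Rik (RefSeq symbol Bclaf3) and Phka2 had a lower log2 difference than Pdha1.

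The lower genes were not spread over the whole window. The 6 genes on the side towards the centromere, from Sat1 (at -4.92 Mb from Pdha1) to Yy2 (at -2.56 Mb), had 2 genes higher and 1 lower, with a median log2 difference of -0.11. After a stretch of 1656 kb with no tested gene came Rps6ka3, and from there to Fancb at the other end of the window 22 of 23 genes were called lower, with a median of -1.49. The TDG KO means of these 22 were 11.6 to 57.7% of the WT means, with a median of 32.9%. The 11.6% is Gm15186, which lies inside A830080D01Rik, itself at 11.8%. Gm15186 (0.452 and 0.361 FPKM in TDG KO) and Nhs (0.554 and 0.487 FPKM) passed the filter only through their WT libraries. For these genes the filter favoured a lower call. Pdha1, at 17.8%, was near the low end of this range and inside it.

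On the side towards the centromere, Sms, spermine synthase, had 49.2 and 54.4 FPKM in TDG KO and 38.3 and 39.6 FPKM in WT, a rise of 0.40 (SE 0.07). Prdx4, a peroxiredoxin, had a log2 difference of 0.24 (SE 0.077), with the call lost without TDG KO replicate 2 (0.15), WT replicate 1 (0.20) or WT replicate 2 (0.28), with no filter and with no trend. Acot9, a mitochondrial acyl-CoA thioesterase, and Mbtps2, a membrane protease, had log2 differences of -0.16 (SE 0.063) and -0.06 (SE 0.12) and were not called.

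Next to Pdha1 lie Map3k15, a kinase gene, with a log2 difference of -0.66 (SE 0.08), and Phka2, a regulatory subunit of phosphorylase kinase. Phka2 had 4.67 and 4.60 FPKM in the TDG KO libraries, against 32.0 and 32.7 FPKM in the WT libraries, a log2 difference of -2.57 (SE 0.065). A830080D01Rik had 16.1 and 13.1 FPKM in TDG KO, against 121.2 and 125.4 FPKM in WT, a log2 difference of -3.00 (SE 0.096). Map3k15, at 57.7% of WT, was thus far less reduced than Pdha1, while Phka2 and A830080D01Rik were at 14.3% and 11.8% of WT.

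Farther out, Piga, which starts the synthesis of the GPI anchor, had a log2 difference of -2.11 (SE 0.077). Syap1 and Siah1b, a ubiquitin ligase gene, had differences of -1.72 (SE 0.077) and -1.67 (SE 0.059). Scml2, a Polycomb family gene 1.04 Mb from Pdha1, was the exception, with 22.6 and 22.2 FPKM in TDG KO and 4.82 and 4.77 FPKM in WT, a rise of 2.01 (SE 0.067). Scml2 thus lies among lower genes on both sides and was itself several times higher in TDG KO.

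**Figure D4:**
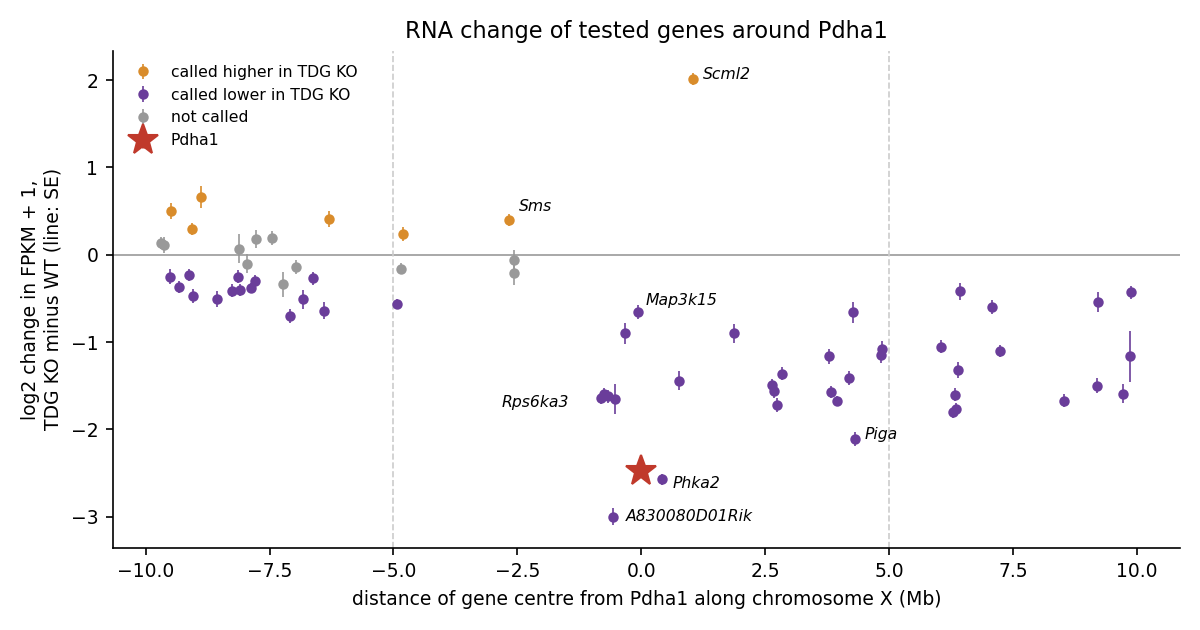
Log2 difference in FPKM + 1, TDG KO minus WT, of each tested gene within 10 Mb of Pdha1, against its distance from Pdha1 in Mb, with lines for the SE and dashed lines at 5 Mb. Genes left of the gap lie on both sides of 0, between -0.70 and 0.66, those from Rps6ka3 rightwards are lower apart from Scml2 at 2.01, and Pdha1 (star) is at -2.48.

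Pdha1 exceeded the median neighbour in level in both genotypes, but by less in TDG KO, and the neighbour Rbbp7 was above Pdha1 in every library. On the log2(FPKM + 1) scale it stood 3.08 and 3.44 above the median neighbour in the TDG KO libraries, against 4.18 and 4.22 in the WT libraries. The median neighbour was at 3.70 and 3.33 in TDG KO and at 5.04 and 5.07 in WT on the same scale. By Euclidean distance over the 4 libraries on that scale, the tested genes most like Pdha1 were Mid1 (0.98), Tceb2 (1.36), Spp1 (1.40), Rbbp7 (1.57) and Dhx16 (1.62). Mid1 and Rbbp7 are also on chromosome X. Rbbp7, a histone chaperone 2.64 Mb from Pdha1, had 233 and 237 FPKM in TDG KO and 643 and 686 FPKM in WT. Mid1, a ubiquitin ligase gene, had 183 and 150 FPKM in TDG KO and 535 and 471 FPKM in WT.

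Around the other 9 genes the median neighbour lay between -0.14 and 0.35. The counts of their neighbours stand beside 24.4% called higher and 29.5% called lower over all genes tested. Neighbours of Pdk3, the other gene on chromosome X, had 2 of 15 called higher and 5 lower, with a median log2 difference of 0.00. The median over neighbours within 5 Mb was 0.23 for Pdhb, -0.10 for Dlat, -0.12 for Dld and -0.07 for Pdhx. It was -0.11 for Pdk1 and -0.14 for Pdp1. The genes around Pdk2 on chromosome 11 ran the other way from Pdk2, with 65 of 102 called higher (63.7%), 4 lower (3.92%) and a median of 0.35. Pdp2 was called higher among 69 neighbours of which 9 (13.0%) were called higher and 21 (30.4%) lower, with a median of -0.11. Their share called lower was near that of all genes tested.

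CTCF peaks around Pdha1 were compared as a share of each library's list, since the lists held 48514 and 48833 peaks in TDG KO and 38303 and 37099 in WT. These values come from other libraries than the RNA and were not used to choose the genes. Within 5 Mb of Pdha1 the TDG KO lists held 83 and 112 peaks, or 0.171% (exact 95% interval 0.136 to 0.212) and 0.229% (0.189 to 0.276). The WT lists held 753 and 161 peaks there, or 1.97% (1.83 to 2.11) and 0.434% (0.370 to 0.506). Both TDG KO shares were below both WT shares, with means of 0.2 ± 0.0412% and 1.2 ± 1.08% (SD, n = 2 each), and the WT libraries differed more from each other than WT replicate 2 did from TDG KO. The log2 ratio of the mean shares was -2.58, and -1.12 without WT replicate 1. The smallest two-sided p an exact permutation test allows here is 0.33. The intervals cover counting error only.

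Most peaks of WT replicate 1 in the window were weak by the authors' own score, with a median at percentile 6.48 of their list and 480 of the 753 below percentile 10. The median was at percentile 40.1 in WT replicate 2 and at 26.6 and 34.9 in the TDG KO lists. Peaks above the median score of their list numbered 5 and 31 in the TDG KO lists, against 83 and 68 in the WT lists, so the WT lists also held more strong peaks. Most peaks of WT replicate 1 lay close to Pdha1. From 1.25 Mb before it to 1.5 Mb after it the TDG KO lists held 23 and 40 peaks (0.0474% and 0.0819% of the list), against 641 and 90 peaks in the WT lists (1.67% and 0.243%). These bounds follow the bins where the counts of WT replicate 1 rose, so this contrast is a description and not a test. Farther towards the centromere, out to 10 Mb, the TDG KO lists held 84 and 84 peaks (0.173% and 0.172% of the list), against 56 and 58 in the WT lists (0.146% and 0.156%), a slightly higher share in TDG KO. From 1.5 Mb after Pdha1 out to 10 Mb they held 63 and 81 peaks (0.130% and 0.166%), against 164 and 106 in the WT lists (0.428% and 0.286%). Close to Pdha1 the WT lists rose to 641 and 90 peaks, against 56 and 58 over the longer stretch towards the centromere. Allowing for length, the TDG KO lists showed no clear fall, with 23 and 40 peaks against 84 and 84. TDG KO replicate 2 held more peaks per Mb close to Pdha1 than over the longer stretch, and TDG KO replicate 1 did not. The stretch where the TDG KO lists held fewer peaks than the WT lists thus began before Pdha1 and went on to the far side. The stretch of lower RNA did so too. Input libraries were not analysed here, so DNA copy number of this stretch in the lines was not measured, and its part in the peak shares and in the RNA was not tested.

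**Figure D5:**
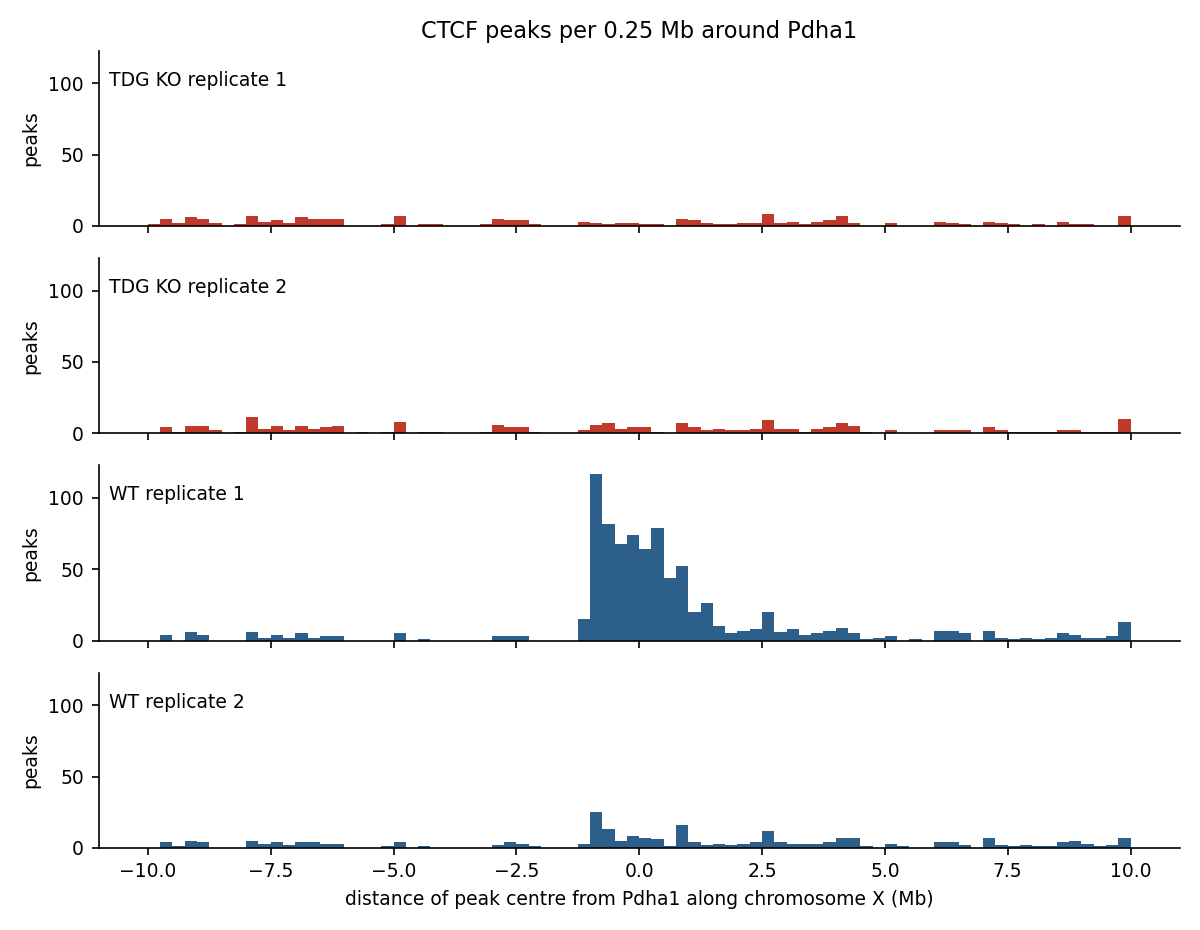
CTCF peaks per 0.25 Mb against distance from Pdha1 in Mb, 1 panel per library, TDG KO above WT. WT replicate 1 holds up to 117 peaks in a bin close to Pdha1 and WT replicate 2 up to 25. TDG KO replicates 1 and 2 hold up to 5 and 7 there.

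Around the other genes the share of peaks within 5 Mb differed less between the lists. Around Pdhb it was 0.260% and 0.260% in TDG KO and 0.251% and 0.310% in WT. Around Pdp2 it was 0.466% and 0.473% in TDG KO and 0.491% and 0.472% in WT. Around Pdk3, on the same chromosome as Pdha1, it was 0.113% and 0.121% in TDG KO and 0.0809% and 0.105% in WT, higher in TDG KO. Around Pdk2 it was 1.08% and 0.887% in TDG KO and 0.755% and 0.871% in WT.

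Close to the genes, within 10 kb, 7 of the 10 had a CTCF region and 3 (Dlat, Dld and Pdp1) had none. Of 35 regions 22 were at Pdha1, and 21 of those 22 were found only in WT replicate 1, so the count was 13 without that list. The other region, at chromosome X 160116486 to 160117523 and 4.7 kb from Pdha1, was found in TDG KO replicate 2 at percentile 62.2, in WT replicate 1 at 99.7 and in WT replicate 2 at 91.6. It was not in the list of TDG KO replicate 1. Of the 13 regions at the other genes, 10 were in all 4 lists. Among these, the region 3.62 kb from Pdp2 was strong in every list, at percentiles 97.2 and 98.5 in TDG KO and 98.8 and 91.6 in WT. The 3 regions at Pdk2 and the 2 at Pdhb and at Pdhx were likewise in all 4 lists. At Pdk1, 1 of 4 regions was in all 4 lists, and it lies inside the gene.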

How the data were processed

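RNA was measured in 2 TDG KO and 2 WT libraries and CTCF peaks in 2 and 2 others. Per the file headers the authors deposited FPKM per gene and library, and a comparison table with log2 folds (WT over TDG KO), p-values, q-values and a test score. The authors deposited a peak list per CTCF library with a score per peak, whose meaning the sources used here do not give. The score only ranked peaks within a list. The tools in the submitters' processing notes are Bowtie2 2.2.9, MACS2 2.2.1, deepTools, TopHat2 2.1.1, Cuffdiff and Cufflinks 2.2.1, on mm10, with no roles given. The FPKM table holds no counts, so depth is unknown.

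TDG KO minus WT was fitted with limma 3.58.1 (R 4.3.3, trend option) on log2(FPKM + 1) over 12035 genes that averaged 1 FPKM or more, with two-sided p-values adjusted by Benjamini-Hochberg over all of them and a threshold of 0.05. This scale understates changes of low genes. Tested on simulated data of 12035 genes for this comparison, the fit called 30 of 100 genes changed by 0.5 log2, 85 of 100 changed by 1 log2 and 0 of 11835 unchanged genes. In that run 11835 of the 12035 genes were unchanged, whereas 54.0% of all genes tested were called in the RNA libraries. How often the fit misses or wrongly calls genes when so many differ was not tested. Overlapping peaks of different lists (1 bp or more) were joined into regions. Gene positions, promoters and neighbours come from RefSeq on GRCm38.p6, the same build as mm10, which matched 11855 tested genes (98.5%). Coordinates are 1-based. Reads of overlapping genes and similar gene copies are uncertain.

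The 10 genes, the lists, the window and the alternatives were chosen with earlier results of these data known. Named were the 10 genes, Tdg, up to 3 called genes of each list with the largest change (where none was called, the 2 most expressed), the nearest tested neighbour on each side of Pdha1, the 5 lowest and 5 highest neighbours with a mean FPKM of at least 5, and the 5 genes most like Pdha1. The values of 1 gene that this rule names are not reported here. Rps6ka3, Sat1, Yy2 and Fancb were named after their values were seen, as ends of a stretch, and Pdk4 and Pdha2 as relatives of the 10 genes. Gm15186, Nhs and Gm15246 were named because they passed the filter only through WT. The bounds of the stretch of CTCF peaks close to Pdha1 likewise follow the peak counts. Alternatives changed the pseudocount, the filter, the scaling, the trend option, the replicate block, the window, the strongest peaks kept and the overlap, or left out each library in turn.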

Additional observations from a re-analysis of the deposited data

How the results depend on the processing

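The log2 differences of the 10 genes kept their side of the threshold in 98 of 108 repeats, although the sign changed in 6 of them for genes that were not called (Dlat, Pdk3 and Pdp1). A call was lost in 8 (Pdk1 and Pdk2) and gained in 2 (Pdhb). Among the 10 genes, the number called was 2 with a mean FPKM of at least 5, where 8 genes were left, and 2 to 3 with a library left out. The number higher was 0 with that filter and 2 with upper-quartile or median-ratio scaling, and the number lower was 1 to 2 with a library left out. With a library left out, the linked lists had 16 to 21 genes higher and 12 to 15 lower. For the neighbours of Pdha1 within 5 Mb, the median log2 difference was -1.45 with a pseudocount of 0.1 and -1.39 to -1.28 with a library left out. With no filter it was -0.16 over 57 genes, with 5 higher and 28 lower, while 3345 of all 24145 genes were higher and 2886 lower. With a mean FPKM of at least 5 it was -1.38 over 24 neighbours, with 3 higher and 19 lower. Within 2 Mb it was -1.59, with 1 gene higher and 10 lower, and within 10 Mb -0.60, with 7 higher and 51 lower. The share of CTCF peaks in TDG KO was 0.0718% within 2 Mb and 0.385% within 10 Mb. Its log2 ratio to WT was -3.30 to -1.12 with a list left out. Within 50 kb of the 10 genes 90 CTCF regions were found, 32 in every list. Without WT replicate 1, an alternative chosen after seeing the data, 13 regions were found within 10 kb.

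Replicate numbers gave no sign of pairing: over 12035 genes the replicate differences of TDG KO and WT correlated at -0.02. With a replicate block 6696 genes were called, against 6496 without it, and 4 of the 10 genes in both fits, so the block changed no call among them.

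Depth is unknown, FPKM of low genes such as Pdk2 and Pdp2 rest on few reads, and every comparison rests on 2 libraries a genotype.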

Other observations

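Beyond the 5 Mb window the RNA of chromosome X continued in the same way on the far side of Pdha1. All 14 tested genes farther out towards the end of the chromosome were called lower in TDG KO, with a median log2 difference of -1.24 and a range of -1.80 to -0.42. Among them, Gm15246 (0.722 and 0.939 FPKM in TDG KO) passed the filter only through its WT libraries. On the side towards the centromere, the 26 tested genes between 5 and 10 Mb from Pdha1 had 4 higher and 14 lower, with a median of -0.25. Over the whole chromosome outside the window, 27.4% of 412 tested genes were called higher and 36.4% lower. The cause was not tested.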
